A study of Mus musculus with 16 samples.

Results

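The 8 genes described here are the cytochrome P450 genes Cyp2a4, Cyp2a5, Cyp2a12, Cyp2a22, Cyp2b9, Cyp2b10 and Cyp2b13, and Nr1i3, which encodes the nuclear receptor CAR (constitutive androstane receptor). They were taken by symbol from the 40324 distinct symbols of the count table, and all 8 passed the filter on low counts that left 14476 genes for testing. Liver RNA was measured by RNA sequencing in 16 db/db littermates, 8 given an AAV8 vector encoding GFP (the control genotype in the labels) and 8 given AAV8 encoding arcA (labelled overexpression). Injection took place at about 5 weeks and sampling at 10 weeks of age. Both groups share the db/db genotype, in which the lack of a working leptin receptor leads to obesity and diabetes. Whether the groups differed in these traits at sampling was not tested here. AAV8 is a serotype that reaches hepatocytes efficiently. The sources used here do not give the promoter that drives the transgenes, the vector dose or the sex of the mice. Counts per library were 0 to 4 for Xist and 936 to 3934 for Ddx3y, a gene of the Y chromosome. Reads of a Y chromosome gene were thus present in all 16 libraries, in both groups alike. The albumin gene Alb, a marker that defines hepatocytes, had 1493819 to 3560858 counts per library.

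Cytochromes P450 of the 2A and 2B subfamilies are haem enzymes of the endoplasmic reticulum that oxidise drugs, steroids and other lipophilic compounds in the liver. CAR waits in the hepatocyte cytoplasm in a complex with the chaperone Hsp90 and, once activated by compounds such as phenobarbital, enters the nucleus, pairs with RXR and binds repeats of a hexamer close to AGGTCA. Cyp2b10 is the standard readout of CAR in mouse liver. Cyp2b9 and Cyp2b13 are known instead for higher expression in female than in male liver, a difference set by the pattern of growth hormone release.

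The 7 P450 genes lie in a single cluster on chromosome 7 and Nr1i3 lies on chromosome 1 (GRCm38, GENCODE M21). In the order of the chromosome, Cyp2b10 (ENSMUSG00000030483) spans 25897620 to 25926624, Cyp2b13 (ENSMUSG00000040583) 26061497 to 26096197, Cyp2b9 (ENSMUSG00000040660) 26173411 to 26210661 and Cyp2a4 (ENSMUSG00000074254) 26307169 to 26315088. Beyond them, Cyp2a5 (ENSMUSG00000005547) spans 26835305 to 26843548, Cyp2a22 (ENSMUSG00000091867) 26931631 to 26939384 and Cyp2a12 (ENSMUSG00000060407) 27029081 to 27037375. Cyp2a22 is on the minus strand and the other 6 are on the plus strand. Nr1i3 (ENSMUSG00000005677) is on the plus strand at 171213970 to 171220701 of chromosome 1. The longest coding transcript has 10 exons for Cyp2b10 and 9 for each of the others.

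Several of the P450 members form pairs of close copies, which bears on how reads were assigned. The coding sequences of Cyp2a4 and Cyp2a5 were identical at 1459 of 1482 positions (98.4%). Those of Cyp2a12 and Cyp2a22 were 97.0% identical, and those of Cyp2b9 and Cyp2b13 were 92.7% identical. Cyp2b10 was 86.2% identical to Cyp2b9 and 87.2% to Cyp2b13, and any 2A with any 2B sequence 61.2% to 62.1%. Of all 50-base windows of the transcript, 38% of those of Cyp2a4 and 37.0% of those of Cyp2a5 occurred unchanged in another gene. The share was 27.3% for Cyp2b13, 11.2% for Cyp2b9, 8.70% for Cyp2b10, 20.1% for Cyp2a12 and 20.2% for Cyp2a22, and no window of Nr1i3 did so. For Cyp2b13 the gene sharing most was Gm45225 (13.8% of windows), which no sum of members covers; for the other P450 members it was another member. The separate folds of these close pairs are therefore uncertain, and summed values are given beside them. An antisense gene, Gm42375, overlaps exons of Cyp2a4, and the sources used here do not say whether counting used strand.

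The promoters of the 3 Cyp2b genes and of the pair Cyp2a4 and Cyp2a5 are printed because they show which members are near-copies also outside their coding sequence. Each line is the 250 bases before the RefSeq start site, 5′ to 3′ on the plus strand of GRCm38.p6, at chr7:26173159-26173408 for Cyp2b9, chr7:26061245-26061494 for Cyp2b13 and chr7:25897408-25897657 for Cyp2b10. Those of Cyp2a4 and Cyp2a5 lie at chr7:26306942-26307191 and chr7:26835089-26835338. Capitals mark matches, on either strand, of TATAAA (the TATA box), TTGCATAA or TTGTATAA (words close to the sites of C/EBP and PAR bZIP factors) and AGGTCA (the nuclear receptor half-site). None of the matches overlapped another.
Cyp2b9: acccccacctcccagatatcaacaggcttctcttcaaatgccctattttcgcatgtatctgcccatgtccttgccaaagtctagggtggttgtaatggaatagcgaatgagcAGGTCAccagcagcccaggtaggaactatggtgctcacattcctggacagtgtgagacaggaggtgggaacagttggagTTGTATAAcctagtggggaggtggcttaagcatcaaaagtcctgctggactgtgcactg
Cyp2b13: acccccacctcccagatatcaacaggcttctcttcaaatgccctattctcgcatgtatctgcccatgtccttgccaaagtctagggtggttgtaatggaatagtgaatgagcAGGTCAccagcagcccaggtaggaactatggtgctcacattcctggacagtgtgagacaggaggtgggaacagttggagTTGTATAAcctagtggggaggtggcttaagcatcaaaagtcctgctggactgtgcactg
Cyp2b10: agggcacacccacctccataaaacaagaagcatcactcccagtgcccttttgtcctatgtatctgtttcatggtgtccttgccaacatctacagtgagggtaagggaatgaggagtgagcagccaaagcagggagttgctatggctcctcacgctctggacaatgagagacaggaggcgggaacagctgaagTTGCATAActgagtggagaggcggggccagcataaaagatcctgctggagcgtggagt
Cyp2a4: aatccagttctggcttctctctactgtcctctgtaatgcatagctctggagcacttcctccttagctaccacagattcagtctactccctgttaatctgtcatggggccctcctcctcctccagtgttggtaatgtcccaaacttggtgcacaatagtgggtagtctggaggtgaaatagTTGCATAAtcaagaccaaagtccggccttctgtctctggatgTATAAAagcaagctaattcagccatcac
Cyp2a5: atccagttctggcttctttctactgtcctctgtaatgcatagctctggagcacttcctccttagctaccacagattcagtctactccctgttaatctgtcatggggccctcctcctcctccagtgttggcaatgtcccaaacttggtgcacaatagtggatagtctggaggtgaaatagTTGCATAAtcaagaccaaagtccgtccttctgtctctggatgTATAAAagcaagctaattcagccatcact
The windows of Cyp2b9 and Cyp2b13 were identical at 248 of 250 bases, with the substitutions T48C and C104T, counted from 1 at the 5′ end of the Cyp2b9 window. That of Cyp2b10 matched the Cyp2b9 window at 182 of 240 aligned bases (75.8%). Cyp2a4 and Cyp2a5 were identical at 245 of 249 bases, with C19T, T131C, G161A and G205T counted along the Cyp2a4 window. TTGCATAA stood in 3 of the 8 members (Cyp2b10, Cyp2a4 and Cyp2a5) and in 0.694% of all 32851 promoter windows of this length. TTGTATAA, which differs from it at 1 letter, stood in Cyp2b9 and Cyp2b13 and in 0.536% of all windows. AGGTCA was found in Cyp2b9 and Cyp2b13, 138 bases before the start in both, and in 14.0% of all windows. TATAAA stood in all 4 of the Cyp2a members and in 12.4% of all windows. AGTTCA, another half-site spelling, and TTCNNNGAA, the STAT5-type palindrome, were in none of the 8 windows and in 11.8% and 7.02% of all. These are matches of letters in a short window and were not tested as sites. Sequence outside these windows was not searched, so a gene without a match here may hold sites elsewhere.

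Libraries held 28912563 to 53520828 counts in the GFP group and 37325610 to 45874797 in the arcA group. Gm42418, a gene that overlaps ribosomal RNA sequence, took 11.8% to 19.4% of the counts of GFP 2, 3 and 5 and 2.29% to 7.37% of those of the other libraries. Single livers recurred at the ends of the members' ranges: GFP 1 was the lowest GFP liver for Cyp2a22, Cyp2b9, Cyp2b13 and Nr1i3, GFP 7 for Cyp2a5, Cyp2a12 and Cyp2b10, and arcA 8 the lowest arcA liver for 5 members.

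The comparison asked how the liver transcriptome differed between arcA and GFP mice. Cyp2b9 and Cyp2b13 rose in arcA livers, while Cyp2b10, the 4 Cyp2a genes and Nr1i3 did not pass the test. That is 2 of 8 members higher and 0 lower, against 4.26% of all 14476 genes called higher, 6.57% called lower and 10.8% called in either direction. At an unadjusted p under 0.05 the members' counts were also 2 and 0, as they were with DESeq2 and with limma voom. The count higher was 1 in 9 other settings and in 11 of the 16 fits without 1 library, and 0 with scaling on hepatocyte markers. All 8 log2 fold changes were above 0, with a median of 0.10, against a median of 0.0091 over all genes tested. Of 15 hepatocyte markers, 14 were also above 0, at a median of 0.22. With scaling on those markers, Cyp2b10 and the 4 Cyp2a genes were below 0. No member separated the groups completely, and 0.566% of all genes did so with higher and 1.20% with lower values in arcA livers. Calls are those of edgeR's quasi-likelihood test at a Benjamini-Hochberg adjusted p below 0.05 over all genes, and levels are CPM (depth-normalised counts on the TMM-adjusted library size). The labels call the mice littermates but give no litter, cage or batch for a liver, and the p-values measure the spread between these samples. In whole liver, fewer cells of a type and less RNA per cell cannot be told apart.

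Cyp2b9, the female-biased 2B enzyme gene, ranged in GFP livers from 254 to 465 CPM with a median of 385 and in arcA livers from 414 to 604 with a median of 514. Of the arcA livers, 6 lay above the highest GFP liver, 6 GFP livers lay below the lowest arcA liver, and the ranges overlapped between 414 and 465 CPM. The means were 372 ± 70.4 and 511 ± 67.3 CPM (SD, n = 8 each). Cyp2b9 rose by 0.46 on the log2 scale (SE 0.111, 95% interval 0.22 to 0.69, adjusted p = 0.0116 with edgeR), a fold of 1.37, and 8 of 8 arcA livers were above the GFP median. GFP 1 and GFP 7 had its lowest levels, 254 and 290 CPM, against 360 to 465 CPM in the other 6 GFP livers. Without both, the rise was 0.32 (adjusted p = 0.0330). Those 2 livers were left out because their values were low, which by itself narrows the difference. Without GFP 2, 3 and 5 the rise was 0.51 (adjusted p = 0.0294). With scaling on hepatocyte markers it missed the threshold (0.28, adjusted p = 0.0514).

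Cyp2b13, the neighbouring female-biased gene, ranged from 128 to 352 CPM (median 280) in GFP livers and from 293 to 497 CPM (median 432) in arcA livers. The means were 271 ± 76.3 and 406 ± 74.8 CPM (SD, n = 8 each). It rose by 0.59 on the log2 scale (SE 0.179, 95% interval 0.20 to 0.97, adjusted p = 0.0468 with edgeR), a fold of 1.5, again with 8 of 8 arcA livers above the GFP median. The lowest levels were 128 CPM in GFP 1 and 198 in GFP 7, the other GFP livers held 265 to 352 CPM, and 5 arcA livers lay above them all. This call was close to the threshold. It was lost in 11 of the 16 fits that left out 1 library: without GFP 2, 3, 4, 5 or 7, and without arcA 1, 2, 4, 5, 6 or 7. Over all 16 the rise was 0.48 to 0.65 and the adjusted p 0.0261 to 0.0956. Without GFP 1 and GFP 7 together the rise was 0.39 (adjusted p = 0.0551). Without GFP 2, 3 and 5 it was 0.61 (adjusted p = 0.131).

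Cyp2b10, the CAR target of the family, did not pass the test. It ranged from 59.7 to 182 CPM (median 129) in GFP livers and from 92.4 to 180 CPM (median 137) in arcA livers, so the arcA range lay inside the GFP range. The means were 126 ± 34.6 and 132 ± 29.0 CPM (SD, n = 8 each), and the log2 fold change was 0.076 (SE 0.185, adjusted p = 0.856 with edgeR). The 95% interval of the fold, 0.80 to 1.38, leaves room for a change of the size seen in Cyp2b9. GFP 7 held the lowest level, 59.7 CPM, and GFP 3 and arcA 1 the highest, 182 and 180 CPM. Without GFP 1 and 7 the log2 fold change was -0.055.

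The reads of the 3 Cyp2b genes divided as follows, and no difference between these genes was tested. Cyp2b9 took 48.7% ± 2.55 of all Cyp2b9, Cyp2b10 and Cyp2b13 reads in GFP livers and 48.7% ± 3.01 in arcA livers (SD, n = 8 each). Cyp2b13 took 34.7% ± 5.12 and 38.5% ± 3.94, and Cyp2b10 took 16.6% ± 4.75 and 12.7% ± 2.90. The Cyp2b10 share was 10.9% to 25.0% in GFP livers and 8.87% to 17.8% in arcA livers, ranges that overlap. With the 3 genes summed into a single count, so that a split of reads among them does not matter, the log2 fold change was 0.45 (SE 0.117, adjusted p = 0.0171 with edgeR). Cyp2b9 and Cyp2b13 summed gave 0.51 (SE 0.129, adjusted p = 0.0150).

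**Figure D1:**
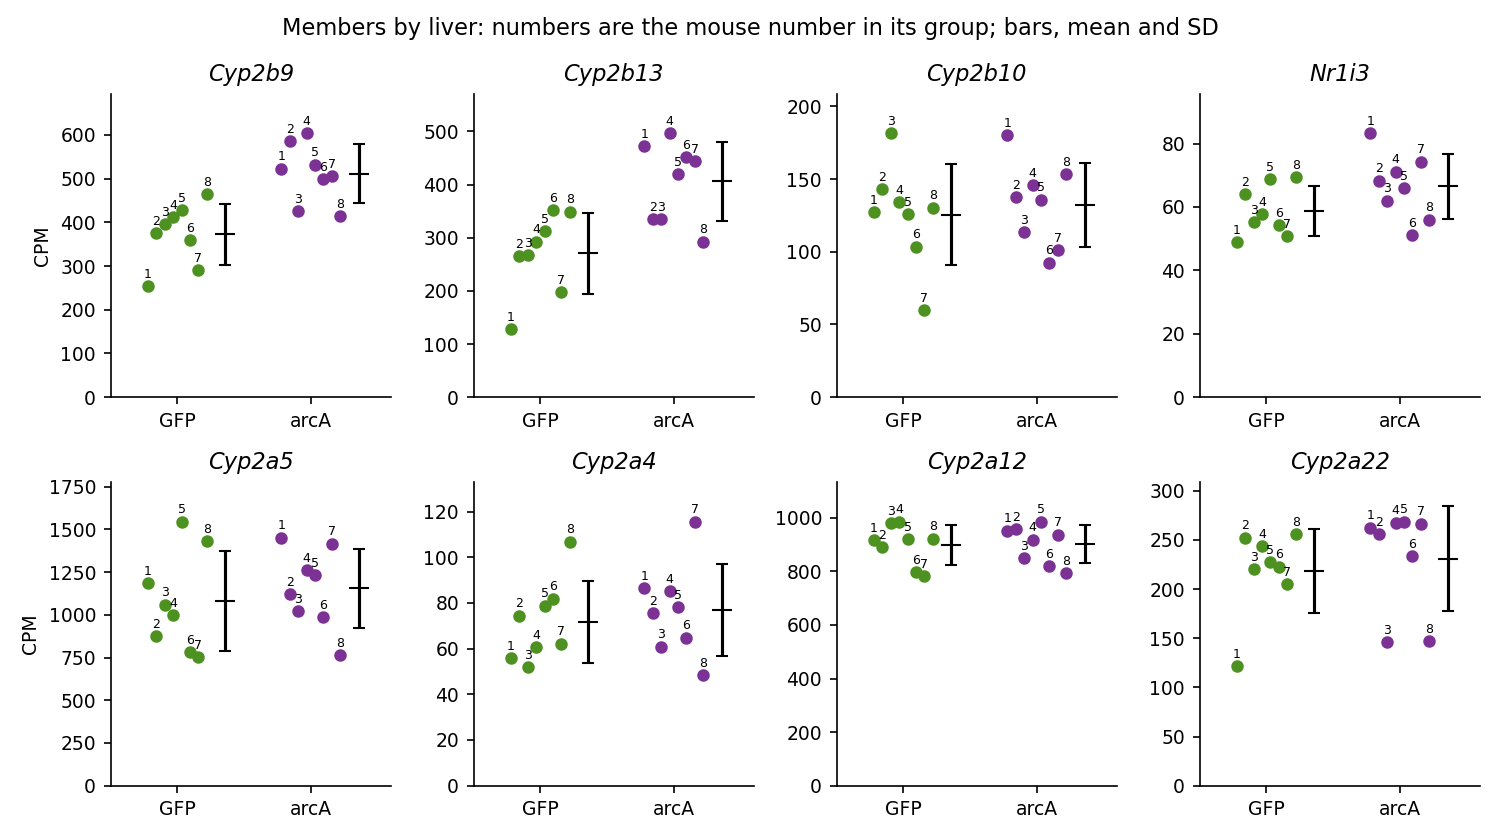
Level of each of the 8 members in CPM, 1 panel per gene with its own axis from 0, with a point per liver (8 GFP, 8 arcA), the mean and its SD. Cyp2b9 and Cyp2b13 sit higher in arcA livers with some overlap, and the other 6 panels show ranges that largely coincide.

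Nr1i3, the gene of the receptor itself, ranged from 49.0 to 69.3 CPM (median 56.4) in GFP livers and from 51.1 to 83.3 CPM (median 67.1) in arcA livers. The means were 58.6 ± 7.86 and 66.5 ± 10.2 CPM (SD, n = 8 each), with 6 of 8 arcA livers above the GFP median and 3 above the highest GFP liver. Its log2 fold change of 0.18 did not pass (SE 0.0949, 95% interval -0.016 to 0.38, adjusted p = 0.243 with edgeR). arcA 1 had the highest level, 83.3 CPM, and GFP 1 the lowest, 49.0 CPM. Exons of Tomm40l, on the opposite strand, overlap Nr1i3, but Tomm40l had only 52 to 191 counts per library, 2.14% to 7.91% of those of Nr1i3.

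Cyp2a5 encodes the mouse coumarin hydroxylase, which also oxidises nicotine. Its range was 752 to 1546 CPM (median 1029) in GFP livers and 764 to 1452 CPM (median 1177) in arcA livers. The means were 1079 ± 293 and 1157 ± 231 CPM (SD, n = 8 each), and the log2 fold change was 0.10 (SE 0.159, adjusted p = 0.759 with edgeR). GFP 5 and GFP 8 were high, at 1546 and 1432 CPM, and GFP 7 and arcA 8 were lowest, at 752 and 764 CPM, so the spread within a group exceeded the difference between groups.

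Cyp2a4, a steroid hydroxylase and the near-identical copy of Cyp2a5, had far fewer reads. It ranged from 51.8 to 107 CPM (median 68.3) in GFP livers and from 48.4 to 116 CPM (median 76.9) in arcA livers. The log2 fold change was 0.10 (SE 0.175, adjusted p = 0.778 with edgeR). Cyp2a4 made up 6.45% ± 1.81 of the reads of the pair in GFP livers and 6.19% ± 0.609 in arcA livers (SD, n = 8 each). The pair summed gave 0.10 on the log2 scale (SE 0.155, adjusted p = 0.752 with edgeR).

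Cyp2a12, another steroid hydroxylase, varied least of the 8 genes. It lay between 781 and 986 CPM (median 918) in GFP livers and between 793 and 985 CPM (median 928) in arcA livers, with coefficients of variation of 8.40% and 7.89%. Its log2 fold change was 0.0042 (SE 0.0665, adjusted p = 0.979 with edgeR), and the 95% interval of the fold, 0.91 to 1.10, does not reach the fold of Cyp2b9. By comparison, the coefficient of variation of Cyp2b13 was 28.2% in GFP and 18.4% in arcA livers.

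Cyp2a22, on the opposite strand between Cyp2a5 and Cyp2a12, ranged from 122 to 256 CPM (median 225) in GFP livers and from 146 to 269 CPM (median 259) in arcA livers. GFP 1 was low at 122 CPM against 205 to 256 in the other GFP livers. arcA 3 and arcA 8 were low at 146 and 147 CPM against 233 to 269 in the other arcA livers. The log2 fold change was 0.079 (SE 0.163, adjusted p = 0.827 with edgeR). Cyp2a22 took 19.5% ± 3.40 of the reads of Cyp2a12 and Cyp2a22 in GFP and 20.2% ± 3.14 in arcA livers (SD, n = 8 each). The pair summed gave 0.019 on the log2 scale (adjusted p = 0.912 with edgeR). Without arcA 3 and 8 the log2 fold change of Cyp2a22 was 0.24 (adjusted p = 0.244) and without GFP 1 and 7 it was -0.052, so its sign and size rest on these livers.

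**Figure D2:**
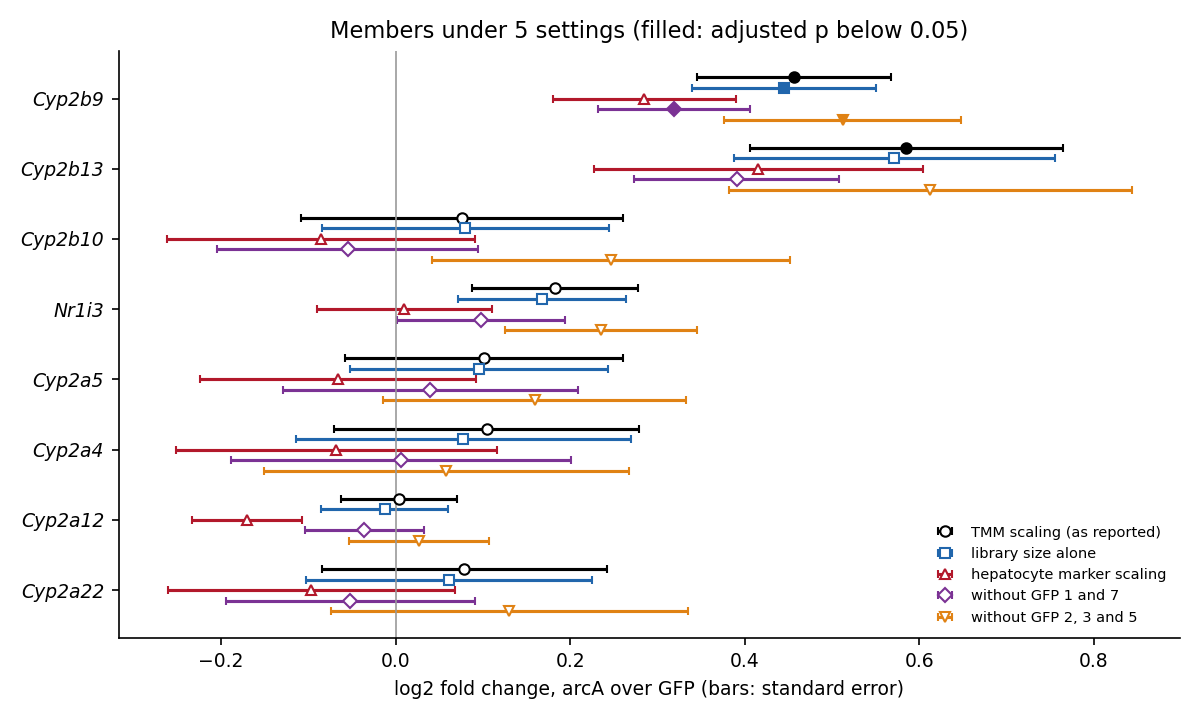
Log2 fold change of arcA over GFP for each member (points, bars give the standard error) under 5 settings, filled where the adjusted p was below 0.05. Cyp2b9 lies between 0.28 (hepatocyte-marker scaling, open) and 0.51, Cyp2b13 is filled only with the TMM scaling reported, and no point of the other 6 genes is filled.

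Levels can be compared between genes only per length, here as CPM per kilobase of the longest coding transcript. In GFP livers the order was Cyp2a5 (536 ± 145), Cyp2a12 (535 ± 44.9), Cyp2b9 (198 ± 37.5), Cyp2b13 (144 ± 40.7), Cyp2a22 (122 ± 23.8), Cyp2b10 (65.6 ± 18.0), Cyp2a4 (41.1 ± 10.3) and Nr1i3 (19.7 ± 2.64 CPM per kilobase, SD, n = 8). The order of the means was the same in arcA livers. Cyp2a5 and Cyp2a12 did not differ beyond their spread, Cyp2a5 being above in 3 of 8 GFP and 6 of 8 arcA livers. Cyp2a12 lay above Cyp2b9 in all 16 livers without overlap of the ranges. Cyp2b9 lay above Cyp2b13 in all 16 livers, though the ranges overlapped. In GFP livers the ranges of Cyp2b13 and Cyp2a22 overlapped, with Cyp2b13 higher in 7 of 8, and in arcA livers, at 216 ± 39.9 and 129 ± 29.8 CPM per kilobase (SD, n = 8), they did not. The split of shared reads can move the levels of near-identical genes. The choice of length matters too. All annotated exons together cover 3457 bases for Cyp2a12, against 1681 in its longest coding transcript, and 3445 against 1796 for Cyp2a22. For Cyp2b9 both lengths are 1876 bases. Per base of all exons, Cyp2a12 and Cyp2a22 would lie lower, so their places in the order hold only for the length used here.

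**Figure D3:**
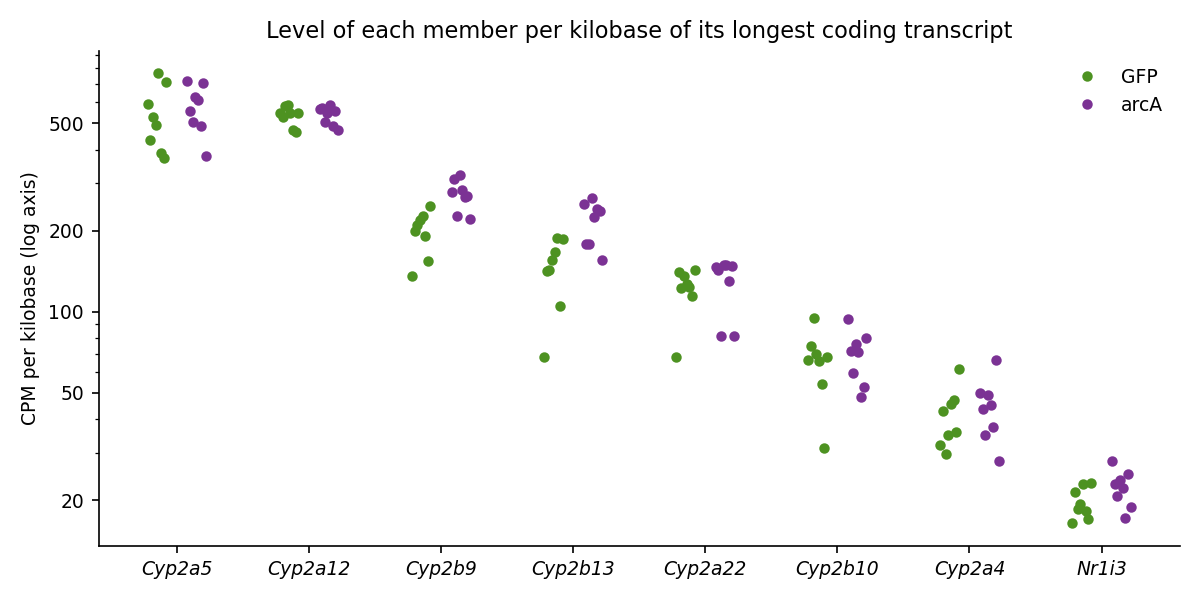
CPM per kilobase of the longest coding transcript (log axis) for each member, ordered by the GFP mean, with a point per liver. Cyp2a5 and Cyp2a12 overlap at the top and Nr1i3 lies lowest, at 19.7 CPM per kilobase on average in GFP livers.

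Members also varied together from liver to liver within groups. The values below are correlations of log2 CPM as deviations from the group mean over 16 livers. They are descriptions of points that share a library and its scaling, taken from 28 pairs. Cyp2b9 and Cyp2b13 varied together (Pearson's r = 0.82, Spearman's rho = 0.61), with r = 0.90 among GFP and 0.61 among arcA livers. Without GFP 1 and GFP 7, the livers farthest from the median of Cyp2b9, r was 0.62. Cyp2b10 had lower correlations with both, r = 0.38 (rho = 0.39) against Cyp2b9 and 0.13 (rho = 0.0059) against Cyp2b13. Against Cyp2b9, r was 0.25 without GFP 1 and GFP 7. Against Cyp2b13, r was -0.029 without GFP 7 and arcA 6, the livers farthest from the median of Cyp2b10. Cyp2a22, a 2A gene, tracked Cyp2b9 at r = 0.84 (rho = 0.71), and at 0.70 without GFP 1 and arcA 3. Nr1i3 had r = 0.42 (rho = 0.36) against Cyp2b10, which was 0.095 without GFP 7 and arcA 6. Against Cyp2a4 it had r = 0.74 (rho = 0.74), and 0.71 without arcA 7 and arcA 8, and against Cyp2a5 r = 0.70 (rho = 0.69), and 0.62 without GFP 5 and arcA 8. Cyp2a4 and Cyp2a5 had r = 0.59 (rho = 0.48), with 0.30 among GFP and 0.93 among arcA livers.

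**Figure D4:**
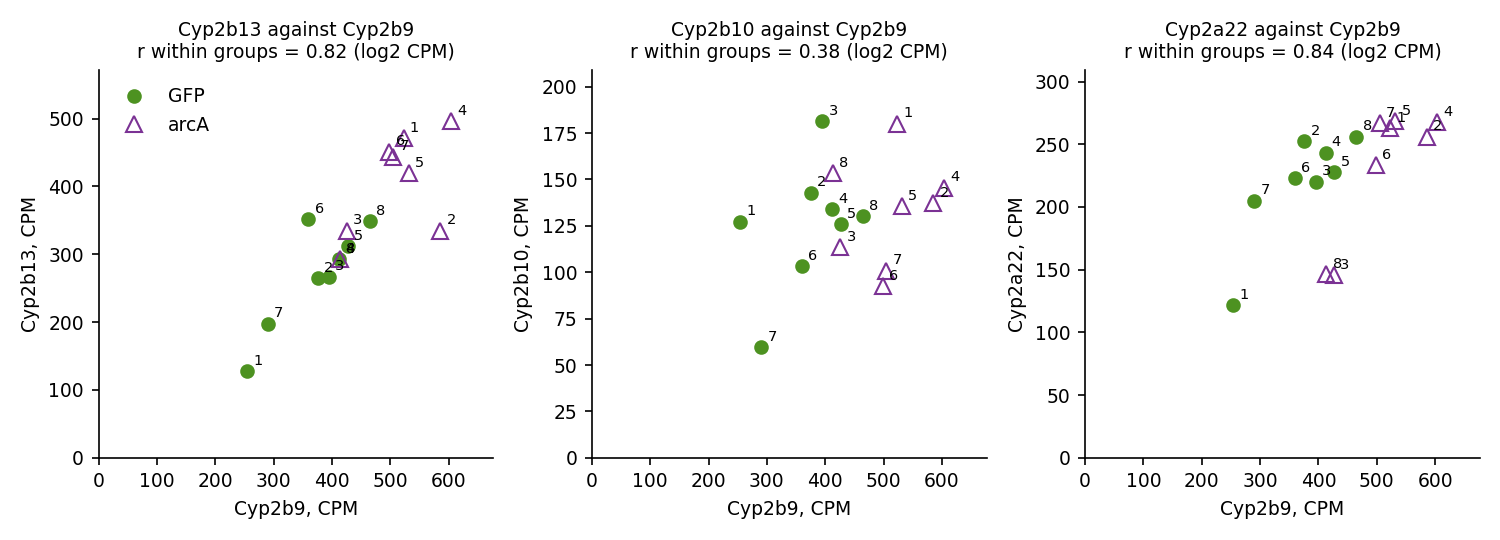
CPM of Cyp2b13, Cyp2b10 and Cyp2a22 (y axes) against CPM of Cyp2b9 (x axes), with a point per liver, filled for GFP and open for arcA, numbered by replicate. GFP 1 and GFP 7 lie lowest on both axes in the Cyp2b13 panel, and arcA 3 and 8 lie low in the Cyp2a22 panel.

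Among 11182 genes of at least 1 CPM on average, predicted-gene and clone names left out, those whose deviations were most like a member's were named by rank. For Cyp2b13 they were Cyp2c40 (r = 0.91), Ptgfr (0.87) and Cyp2c69 (0.86), and for Cyp2b9 Dmgdh (0.89), Bhmt2 (0.88) and Ptgfr (0.87), so Ptgfr, a prostaglandin receptor gene, stood in both. Cyp2c40 and Cyp2c69 are themselves female-biased liver genes. For Cyp2b10 they were Peli1 (0.90), Sult1d1 (0.88) and Fam149a (0.86). For Nr1i3 they were Ppp3ca (0.88), Morn2 (0.85) and Cyp4a12b (0.82), and for Cyp2a5 Cyp4a12b (0.87), Fbxo36 (0.84) and Aldh7a1 (0.82). For Cyp2a4 they were Gamt (0.85), Exosc5 (0.84) and Msra (0.82). Cyp2a12 had Akt1s1 (0.90), Gmppb (0.89) and Sod2 (0.89), and Cyp2a22 had Marc2 (0.92), Idh2 (0.90) and Cmbl (0.90). All are correlations over the same 16 livers, picked as the highest of many.

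Of 20 genes for CAR's partners, chaperones, coregulators and related receptors, 0 passed with edgeR, against 10.8% called over all genes, at a median log2 fold change of 0.054, and 1 had an unadjusted p under 0.05. That gene was Hsp90ab1, an Hsp90 chaperone, at 0.18 on the log2 scale (SE 0.0643, adjusted p = 0.0814 with edgeR), which DESeq2 and limma voom called. Rxra, the partner of CAR, had 0.10 (adjusted p = 0.459), Dnajc7, a co-chaperone of the cytoplasmic complex, 0.093 (adjusted p = 0.313), and Nr1i2, the related receptor PXR, -0.034 (adjusted p = 0.805 with edgeR). Hnf4a had 0.15 and Ppp1r16a 0.096, neither passing. With libraries scaled on hepatocyte markers, 0 of the 20 rose and 3 fell, against 85 higher and 3533 lower of all 14476 genes.

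Of 25 other targets of CAR and PXR, 3 rose and 2 fell (20%, against 10.8% over all genes), at a median of -0.025. Ugt1a1, which conjugates bilirubin, rose by 0.46 (SE 0.0944, adjusted p = 0.00401 with edgeR), from 53.6 ± 8.75 to 73.8 ± 9.47 CPM (SD, n = 8 each). Abcc3, a bile acid and conjugate exporter, rose by 0.28 (adjusted p = 0.0134), and Cyp3a13 rose by 0.42 (adjusted p = 0.0314 with edgeR). Gadd45b, a stress-response gene, fell by 1.22 (SE 0.249, adjusted p = 0.00347 with edgeR). Its level was low, 1.14 ± 0.369 CPM in GFP and 0.485 ± 0.175 CPM in arcA livers (SD, n = 8 each), and the groups overlapped. Gstm3, a glutathione transferase gene, fell by 1.01 (SE 0.308, adjusted p = 0.0486 with edgeR). The classical targets Cyp2c29 (0.25, adjusted p = 0.287) and Cyp3a11 (-0.14, adjusted p = 0.658) did not pass with edgeR. Abcc3 lost its call without GFP 2, 3 and 5 (adjusted p = 0.0635), without GFP 1 and 7 (adjusted p = 0.0665), with library size alone (adjusted p = 0.0829) and with hepatocyte-marker scaling (0.10, adjusted p = 0.348). Cyp3a13 lost its call in 6 of the 16 fits without 1 library (GFP 1, 2 or 6 or arcA 3, 6 or 8; adjusted p up to 0.0648). Gstm3 passed in 2 of those 16 fits, those without GFP 3 or GFP 4. The calls of Ugt1a1 and Gadd45b were kept in all 16. Scaled on hepatocyte markers, 1 of the 25 rose and 6 fell, against 85 higher and 3533 lower of all 14476 genes under that scaling.

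The neighbours of the members in the cluster gave no calls with edgeR. Of 4 tested, 0 passed with edgeR, against 10.8% called over all genes, and 4 genes are too few to differ from that share. With DESeq2 0 passed and with limma voom 1, and 3 had an unadjusted p under 0.05, at a median of 0.31. Cyp2f2, an enzyme best known from lung, had 878 ± 181 CPM in GFP and 1057 ± 155 CPM in arcA livers (SD, n = 8 each), a log2 fold change of 0.27 (adjusted p = 0.168 with edgeR). Cyp2g1 had 0.35, and the weakly expressed Cyp2b19 and Cyp2s1 had 0.68 and -1.06. Cyp2b23, Cyp2t4 and Cyp2ab1 were below the filter.

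The 2 members that rose belong to the female-biased genes of liver, so a list of 20 others was counted. Whether members that did not rise, such as Cyp2a4, are also female-biased was not examined here. Of these, 5 rose and 0 fell (25% called, against 10.8% over all genes), at a median of 0.43. Slc22a26 rose by 1.63 (SE 0.384, adjusted p = 0.0139), Cyp2c69 by 1.93 (adjusted p = 0.0140), Cyp3a41a by 1.87 (adjusted p = 0.0159) and Cyp2c40 by 1.26 (adjusted p = 0.0300 with edgeR). The fifth was Cyp3a41b, which rose by 2.09. Cyp3a41a with Cyp3a41b and Cyp2c40 with Cyp2c69 are close copies, so the split of their reads is uncertain. Of the 16 fits without 1 library, Cyp2c40 lost its call in 6 (GFP 5 or 7 or arcA 4, 5, 6 or 7) and Cyp3a41b in 8 (GFP 2, 3, 4, 5 or 7 or arcA 4, 7 or 8). Without GFP 2, 3 and 5 none of the 20 passed with edgeR, and without GFP 1 and 7 again 5 did. The median of the 20 was 0.41 without GFP 2, 3 and 5 and 0.33 without GFP 1 and 7. Of 19 male-biased genes, 1 rose (Ugt2b38, by 0.27) and 1 fell (Serpina12, which fell by 1.26), at a median of 0.25. That is 10.5% called, close to the 10.8% over all genes. Without GFP 2, 3 and 5 the counts were 0 and 1. Ugt2b38 lost its call in 12 of the 16 fits without 1 library (all but GFP 1 and arcA 5, 6 and 7; adjusted p up to 0.108) and with each of the 4 other scalings, where hepatocyte-marker scaling gave 0.10 (adjusted p = 0.424). Serpina12 did not pass without GFP 1 and 7 (-0.94, adjusted p = 0.0631). Earlier results of these data were known when these lists were written.

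Of 10 genes of growth hormone signalling, 4 rose and 0 fell (40% called, against 10.8% over all genes), at a median of 0.17. Prlr, the prolactin receptor gene and itself higher in female liver, rose by 0.68 (SE 0.149, adjusted p = 0.00778 with edgeR), from 138 ± 35.2 to 221 ± 24.8 CPM (SD, n = 8 each), without overlap of the groups. Igfals, the acid-labile subunit of the IGF complex, rose by 0.60, Ghr, the growth hormone receptor gene, by 0.23 and Stat5b, its signal transducer, by 0.23. Stat5b lost its call in 9 of the 16 fits without 1 library (GFP 2, 5, 6, 7 or 8 or arcA 1, 2, 4 or 6; adjusted p up to 0.0949). Ghr kept its call in those 16 fits and lost it without GFP 2, 3 and 5 (adjusted p = 0.0645), without GFP 1 and 7 (adjusted p = 0.0674), with library size alone (adjusted p = 0.0846) and with hepatocyte-marker scaling (adjusted p = 0.494). Cish, a feedback inhibitor induced by STAT5, had -0.95 (adjusted p = 0.321 with edgeR). Of the 10 genes, 2 passed with scaling by library size alone, 2 with scaling on hepatocyte markers and 2 without GFP 2, 3 and 5. Over all 14476 genes, library size alone called 253 higher and 800 lower, and hepatocyte-marker scaling 85 and 3533. Without GFP 2, 3 and 5 the numbers were 369 and 818 of 14853 genes.

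**Figure D5:**
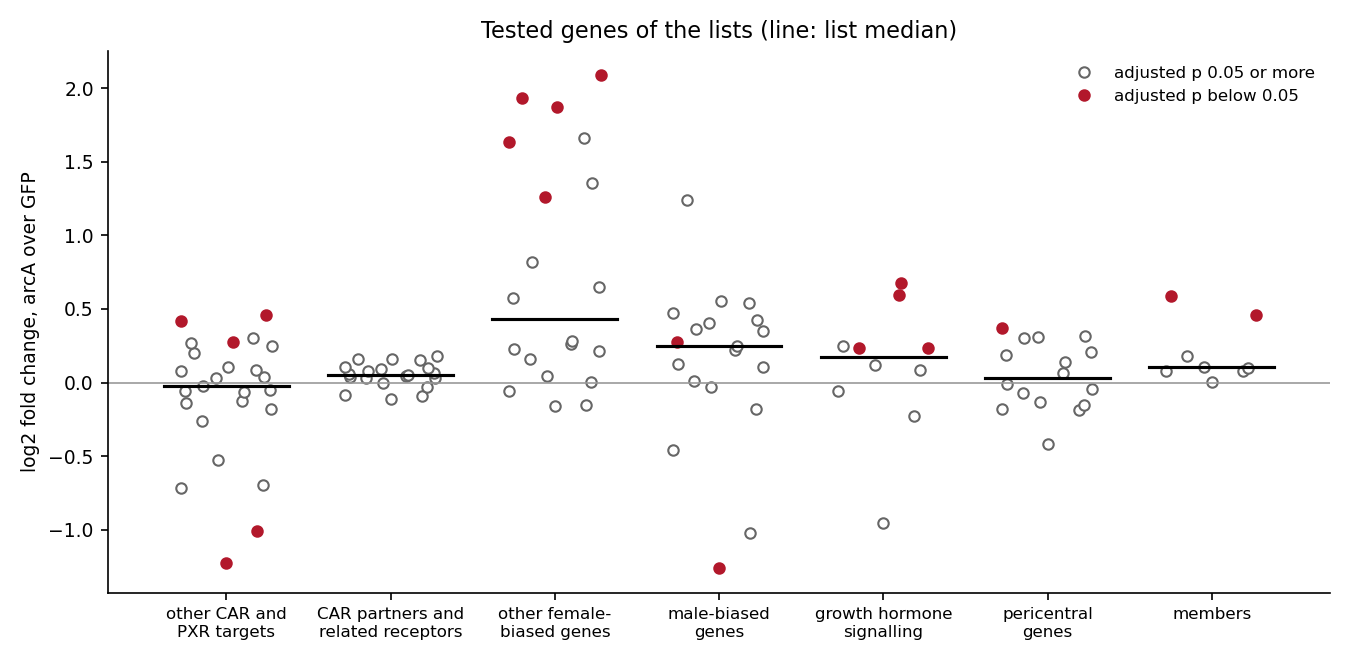
Log2 fold change of arcA over GFP for every tested gene of 6 lists and the members (x axis), with filled points for an adjusted p below 0.05 and a line at each list's median. The 20 genes around CAR lie close to 0, and the female-biased list reaches from -0.16 to 2.09.

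The 3 remaining gene programmes are given by their counts, against 10.8% called over all genes. Clock and PAR bZIP factors, which drive daily rhythms of Cyp2a and Cyp2b genes, gave 0 of 16 with edgeR (1 with DESeq2, 1 with limma voom and 3 at an unadjusted p under 0.05), at a median of 0.077. Of 16 pericentral hepatocyte genes, which mark the zone where these P450 genes are mainly expressed, 1 rose, Cyp2e1 (0.37, adjusted p = 0.00897), at a median of 0.028, and it did not pass with hepatocyte-marker scaling (0.20, adjusted p = 0.0617). Of 11 targets of NRF2, a regulator of Cyp2a5, 0 rose and 2 fell, Srxn1 (-0.48) and Hmox1 (-0.63), at a median of -0.17. Hmox1 did not pass without GFP 1 and 7 (-0.53, adjusted p = 0.0616).

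Markers of immune and stellate cells mostly fell in arcA livers, against 6.57% of all genes called lower and 4.26% called higher. T and natural killer cell markers fell in 13 of 13 tested genes, with a summed level of 16.1 to 35.1 CPM in GFP and 3.31 to 11 CPM in arcA livers. B and plasma cell markers fell in 6 of 6 (54.3 to 307 against 2.46 to 4.20 CPM), macrophage and monocyte markers in 12 of 17 (275 to 431 against 113 to 378 CPM) and stellate cell markers in 8 of 10 (265 to 351 against 168 to 241 CPM). Endothelial markers fell in 1 of 9 (89.2 to 146 against 78.8 to 116 CPM), or 11.1%, against 6.57% of all genes called lower. Of these 9 genes, 0 had a log2 fold change above 0, at a median of -0.23, and 3 had an unadjusted p under 0.05 with edgeR. Of 5 bile duct markers, 0 passed with edgeR, DESeq2 or limma voom or had an unadjusted p under 0.05 (16 to 28.9 against 17.5 to 47.4 CPM). Hepatocyte markers rose in 4 of 15, with summed levels of 85869 to 97295 CPM in GFP and 96518 to 112572 CPM in arcA livers. When libraries were scaled on these hepatocyte markers, the median of all genes shifted by -0.18, to -0.17. Cyp2b9 then had a log2 fold change of 0.28 (adjusted p = 0.0514) and Cyp2b13 of 0.42 (adjusted p = 0.112), 0.45 and 0.58 above that median. Without GFP 1 and 7, the falls numbered 12, 5, 6, 5 and 0 in the T and natural killer, B and plasma, macrophage and monocyte, stellate and endothelial lists, and without GFP 2, 3 and 5 they numbered 13, 6, 7, 6 and 1. The part of these cells in the members' results was not tested.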

How the data were processed

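The authors deposited a table of unnormalised counts, with a row per symbol and a column per liver. The submitters' processing notes name STAR 2.5.1a, featureCounts 1.4.6-p5 (Subread), bcl2fastq and the build GRCm38. The sources used here do not give the annotation release, the strand setting or the treatment of mates; 69.8% of counts from 1 to 20 were even, so counts were also halved as an alternative. From 40757 lines, 348 exact copies were removed and 85 that repeated a symbol were summed. Of 40324 symbols, 40247 matched GENCODE M21.

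Genes passing filterByExpr (14476) were tested with edgeR 4.0.16 (R 4.3.3; TMM, robust quasi-likelihood F test, group as the only term), adjusted by Benjamini-Hochberg, threshold 0.05. Intervals are 95%, from the fit's t quantile. CPM used TMM-scaled library sizes, with a prior count of 2 for log2 CPM. The fits were tested on simulated data. Alternatives were RLE, upper-quartile, library-size and hepatocyte-marker scaling, 2 other filters, DESeq2 1.42.0, limma 3.58.1 voom, a replicate block, paralogs summed, and libraries left out; the fit without GFP 1 and 7 was added after seeing the data.

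The members and lists were chosen with earlier results of these data known. All members were named, with up to 4 genes of smallest p per list and the 3 genes most correlated with each member; Gstm3, Cyp3a41b, Rxra, Nr1i2, Cyp2c29, Cyp3a11 and Cish were named outside this rule, after their values were seen. For the cell marker lists, counts of calls and summed levels are given. Promoter sequences are from RefSeq (GRCm38.p6), where all 8 members matched.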

Additional observations from a re-analysis of the deposited data

Results flagged for a closer look

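Of 16 sets of 8 livers checked (8 members in 2 groups), 1 held a liver far from the others: Cyp2a22 in GFP 1, at 122 CPM against 205 to 256 CPM in the other GFP livers. Its gap to the nearest liver was 0.701 of the whole range on the log2 scale, above Dixon's critical value for 8 samples. Chance flags about 1 in 20 groups. GFP 1 was also the lowest GFP liver for Cyp2b9, Cyp2b13 and Nr1i3. Without GFP 1 and GFP 7, the log2 fold change of Cyp2a22 was -0.052, and without arcA 3 and arcA 8, which were low in their group, it was 0.24.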

How the results depend on the processing

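Over 16 fits that left out 1 library, Cyp2b9 kept its call (0.39 to 0.50), and it kept it in 13 of 14 other alternatives, the exception being hepatocyte-marker scaling (0.28). Those 14 include the sum of Cyp2b9, Cyp2b10 and Cyp2b13 (0.45), which is not a fit of Cyp2b9 alone. Cyp2b13 kept its direction in every fit run (0.48 to 0.65 without 1 library) but missed the threshold when genes needed 1 CPM in 8 or more libraries (0.56), with counts halved (0.57), library size alone (0.57), no filter (0.59), RLE scaling (0.58), hepatocyte-marker scaling (0.42), upper-quartile scaling (0.57), without GFP 1 and 7 (0.39) and without GFP 2, 3 and 5 (0.61). It passed with DESeq2, limma voom and without arcA 3 and 8. The cause was not tested.

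Members called higher numbered 2, but 1 in each of these settings except hepatocyte-marker scaling, where it was 0, and 1 to 2 without 1 library. Over all genes, 617 were higher and 951 lower. The number higher was 407 with the 1 CPM filter, 253 with library size alone, 85 with hepatocyte-marker scaling, 315 without GFP 1 and 7, 369 without GFP 2, 3 and 5, and 389 to 638 without 1 library (389 without GFP 2). The number lower was 3533 with hepatocyte-marker scaling and 731 to 1046 without 1 library. The share of calls that were higher fell from 39.3% to 24.0% with library size alone and to 2.35% with hepatocyte-marker scaling.

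The members that were not called changed sign in some fits. Cyp2a12 was -0.018 with the 1 CPM filter, -0.013 with counts halved, -0.00075 with DESeq2, -0.012 with library size alone, -0.0031 with RLE, -0.013 with upper-quartile scaling, -0.17 with hepatocyte-marker scaling and -0.036 without GFP 1 and 7. Hepatocyte-marker scaling gave -0.097 for Cyp2a22, -0.068 for Cyp2a4, -0.066 for Cyp2a5 and -0.086 for Cyp2b10; it moves the median of all genes by -0.18, and these 4 stayed 0.072 to 0.10 above that median. Without GFP 1 and 7, Cyp2a22 was -0.052 and Cyp2b10 -0.055. Without 1 library, Cyp2a12 ranged from -0.023 to 0.030, Cyp2a22 from -0.0097 to 0.15, Cyp2a4 from -0.0028 to 0.20, Cyp2a5 from 0.040 to 0.19 and Cyp2b10 from -0.029 to 0.16. Summed with Cyp2b9 and Cyp2b13, the row of Cyp2b10 passed (0.45), since the sum holds those genes.

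Livers of the same number shared no sign of pairing (correlations of deviations from -0.049 to 0.16, over 0.1 in 2 of 8 pairs, and 2 of 8 livers best matched by their own number). With the replicate block, 592 genes were higher and 876 lower, Cyp2b9 passed (0.47) and Cyp2b13 did not (0.62, adjusted p = 0.111), so 1 member was higher. Of the 20 female-biased genes, 1 passed with the block, and Cyp2c69, Cyp3a41a and Cyp2c40 did not. With counts halved, Cyp2b13 lost its call (adjusted p = 0.0545 with edgeR), with an SE of 0.180 against 0.179 in the main fit. Halving divides every count alike and does not thin reads, so what depth limits was not tested.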
